A study of Homo sapiens with 22 samples.

Results

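The regions described here are those where H3K27ac peaks were called 6 h after K562 cells received PMA and at neither of the other times. They number 273 of 94896 H3K27ac regions on chromosomes 1 to 22 and X. A region was taken when it overlapped by at least 1 bp a deposited peak of both 6 h libraries and no peak of the 0 or 72 h libraries. The regions were thus chosen by the H3K27ac peak calls themselves, so every H3K27ac value and call below describes the chosen regions and tests nothing about them. Jun, CTCF and Rad21 libraries took no part in the choice.

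K562 is a human erythroleukemia line with erythroid and megakaryocytic features, labelled wild type, grown in RPMI with serum. All groups received 25 nM PMA, a phorbol ester that activates protein kinase C, for 0, 6 or 72 h, and were fixed with formaldehyde. CNR in the sample titles was read as CUT&RUN, an assay where an antibody brings a nuclease to its target and the cut DNA beside it is sequenced. The 22 libraries form 11 groups of 2: H3K27ac, Jun and CTCF were each profiled at all 3 times, and Rad21 only before PMA and after 72 h. The labels do not say whether replicates came from separate cultures, so the p-values measure only the spread between these libraries, which may be technical. The single established line stands in for a megakaryocyte-like state induced by PMA and is not a primary megakaryocyte.

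H3K27ac is acetylation of lysine 27 on the tail of histone H3 and is found at active promoters and enhancers. Jun pairs with Fos family proteins to form AP-1, a transcription factor made active by protein kinase C and MAP kinase signalling that binds TGANTCA sites in many inducible enhancers. CTCF is the zinc finger protein that marks many loop anchors and insulators, and Rad21 is a subunit of the cohesin ring that holds such loops.

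For 5 of the 273 regions the promoter window of a gene, taken from 250 bases before to 50 bases after its transcription start, lay whole inside the region. The 3 windows printed here are those of DUSP8, a MAP kinase phosphatase at which Jun fell while H3K27ac was higher at 6 h, of the uncharacterised transcript LOC105376367, which held an AP-1 match, and of PALD1, a phosphatase domain protein with the highest ratio of 6 over 0 h H3K27ac among the 5. Sequences are the 250 bases upstream, 5′ to 3′ on the strand of the gene, from RefSeq on GRCh38.p14, at chr11:1572272-1572521 on the minus strand, chr10:3942696-3942945 on the plus strand and chr10:70478517-70478766 on the plus strand. Capitals mark matches on either strand to TGACGTCA (CRE), TGANTCA (AP-1), GCGNGGGCG (EGR), GGGCGG (GC box), CCGGAAG (ETS) and GATAA (GATA), and EGR and GC box matches can overlap.

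DUSP8: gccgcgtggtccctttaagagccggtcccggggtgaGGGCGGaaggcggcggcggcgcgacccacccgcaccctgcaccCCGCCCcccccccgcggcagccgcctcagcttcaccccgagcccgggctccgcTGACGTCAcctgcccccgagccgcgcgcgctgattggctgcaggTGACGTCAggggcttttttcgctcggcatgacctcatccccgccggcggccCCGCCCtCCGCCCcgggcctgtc

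LOC105376367: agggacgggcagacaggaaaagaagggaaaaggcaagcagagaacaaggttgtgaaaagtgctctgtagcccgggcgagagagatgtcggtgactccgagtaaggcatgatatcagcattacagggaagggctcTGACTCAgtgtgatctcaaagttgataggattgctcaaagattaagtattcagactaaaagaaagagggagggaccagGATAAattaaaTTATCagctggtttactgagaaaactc

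PALD1: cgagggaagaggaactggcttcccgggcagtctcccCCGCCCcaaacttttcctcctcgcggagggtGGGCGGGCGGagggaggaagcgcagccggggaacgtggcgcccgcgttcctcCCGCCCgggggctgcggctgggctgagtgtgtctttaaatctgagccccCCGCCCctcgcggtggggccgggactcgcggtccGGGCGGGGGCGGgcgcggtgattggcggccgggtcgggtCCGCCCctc

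The DUSP8 window held 2 CRE and 4 GC box matches and no AP-1 match. The LOC105376367 window held 1 AP-1 match and 2 GATA matches, and the PALD1 window held 8 GC box matches and 1 EGR match. Over the 23 promoter windows that shared any base with a 6 h only region, GC box letters stood in 16 (69.6%) and in 42.6% of all 35116 windows of the table. EGR letters stood in 5 of the 23 (21.7%, against 8.42% of all windows), CRE letters in 2 (8.70%, against 1.65%), AP-1 letters in 2 (8.70%, against 6.57%), GATA letters in 3 (13%, against 20.4%) and ETS letters in 1 (4.35%, against 8.52%). The GC content of the 250 upstream bases had a median of 71.6% in these windows and 58.0% in all windows. The table holds no window on chromosome 8, and sequences of the regions away from promoters were not analysed here.

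Counts in regions ranged from 12634261 to 27266241 per H3K27ac library, from 4766421 to 18883962 for Jun, from 2553677 to 6068421 for CTCF and from 4398797 to 7285286 for Rad21. The H3K27ac counts that fell in the 273 regions were 14211 and 15415 at 0 h, 24485 and 32807 at 6 h, then 18104 and 17258 at 72 h. In H3K27ac libraries the mitochondrial share of counts in regions was highest at 6 h. There it was 0.702 and 0.561% at 0 h, 1.47 and 1.01% at 6 h, then 0.374 and 0.286% at 72 h. It was 18.1 to 27.7% at 0 and 6 h and 8.58 and 9.07% at 72 h for Jun, 17.8 to 30.5% at 0 and 6 h and 9.55 and 9.63% at 72 h for CTCF, and 24.8 to 34.1% for Rad21. The part of that share in the H3K27ac, Jun, CTCF and Rad21 results was not tested. Of 8 K562 marker genes, 7 overlapped an H3K27ac region, and their regions summed to 1318 and 1352 CPM at 0 h, 605 and 695 at 6 h, then 600.1 and 639 at 72 h. Of the 4 macrophage and granulocyte markers, 2 (CSF1R and MPO) had a region, with sums of 10.9 and 11.3 CPM at 0 h, 72.4 and 61.8 at 6 h, then 147 and 159 at 72 h, while 4 of 5 lymphoid markers summed to 32.6 to 50.8 CPM in all 6 libraries and neither liver marker had a region. CPM here is the count of a region per 1e+06 counts of the library, with library sizes scaled by TMM factors.

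The 6 h only regions carried a low H3K27ac signal that was higher at 6 h and had returned by 72 h. Their median was 1.70 and 1.69 CPM in the 0 h libraries, 4.69 and 4.28 CPM at 6 h and 1.41 and 1.31 CPM at 72 h. Both 6 h medians lay above all 4 others. The counts behind them were small, with a median of 67 and 87 counts per region in the 6 h libraries and 30 to 39 in the others. Regions with peaks in all 6 libraries, 17164 in number, had medians of 32.0, 25.5 and 22 CPM at 0, 6 and 72 h, and their median length was 1721 bp against 544 bp for the 6 h only regions. The 2713 regions that gained peaks in both 6 h libraries and kept them in both 72 h libraries had medians of 2.42, 10.9 and 14.1 CPM. A lower count in bulk chromatin can come from fewer cells or from less signal per cell, and these cannot be told apart.

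**Figure D1:**
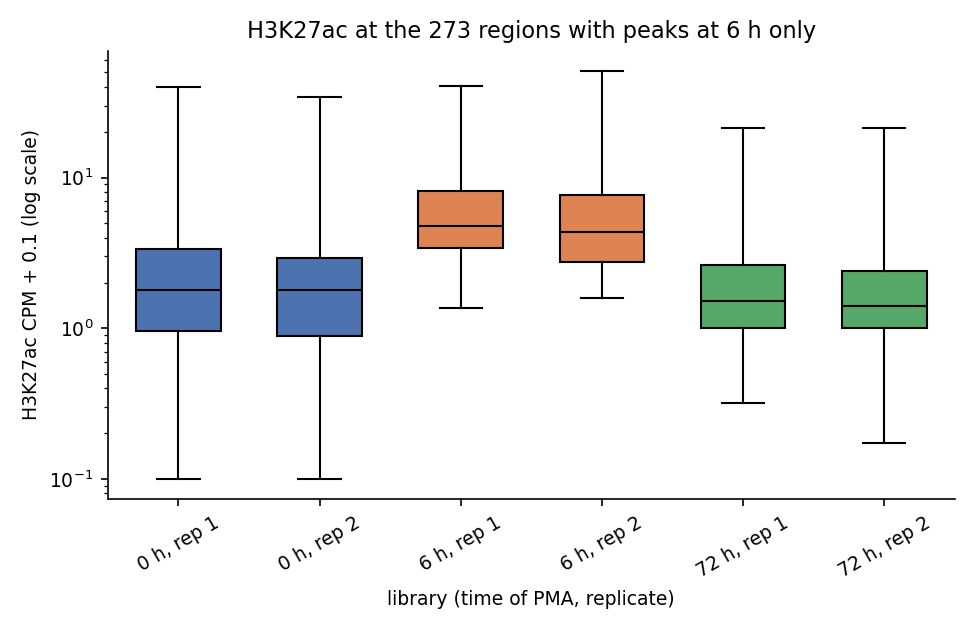
H3K27ac CPM (0.1 added, log scale) at the 273 regions in each of the 6 libraries, with boxes from the 25th to the 75th percentile, a line at the median and whiskers to the lowest and highest region. The 2 medians at 6 h, 4.69 and 4.28 CPM, sit above the other 4, and the ranges of all 6 libraries overlap.

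A peak call is not a count, and a peak at 6 h only did not always mean a count that was higher only then. In 148 of the 273 regions (54.2%) the mean 6 h CPM was at least 2 times the mean at 0 h and at 72 h. Another 23 regions passed this fold over 0 h only, 78 over 72 h only and 24 over neither. Both 6 h libraries lay above both 0 h libraries in 242 regions and above both 72 h libraries in 267. The shares of all H3K27ac regions in these fold classes and orders of libraries are not given here. In edgeR's fit over all 94865 tested H3K27ac regions, 201 of the 273 were called higher at 6 against 0 h at an adjusted p under 0.05 (32.3% of all tested regions were) and 1 lower (26.3% of all). At 72 against 6 h, 255 were called lower (30.8% of all) and 1 higher (33.1% of all), and at 72 against 0 h 60 were called higher (43.4% of all) and 87 lower (38.1% of all). These counts follow from the choice and are not evidence of a change. The median log2 fold change from 0 to 6 h was 1.34, from 6 to 72 h it was -1.63, and from 0 to 72 h it was -0.28.

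**Figure D2:**
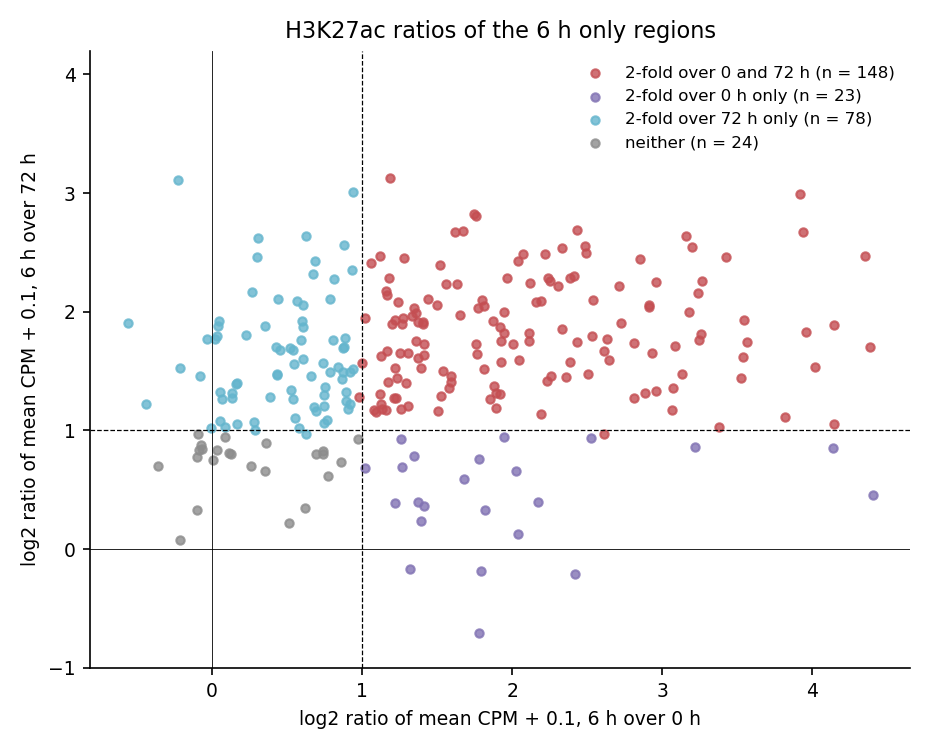
Log2 ratio of mean H3K27ac CPM (0.1 added) at 6 over 0 h (x axis) and at 6 over 72 h (y axis), 1 point per region, coloured by fold class computed without the 0.1, with dashed lines at a 2-fold ratio. The upper right holds 148 of the 273 points, and 78 points lie above the line for 72 h but left of the line for 0 h.

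The clearest 6 h pulses were found in or near genes of signalling and the cell surface. The regions named here had the largest value of the smaller of the 2 log2 ratios among those at or above the median 6 h level. In PIP4K2A, a phosphoinositide kinase, H3K27ac was 0.965 and 0.316 CPM at 0 h, 6.79 and 6.25 at 6 h, then 1.27 and 0.656 at 72 h (chr10:22534554-22535445). Both 6 h libraries stood above the other 4.

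A region in QSOX2, a sulfhydryl oxidase, went from 0.738 and 1.79 CPM to 6.58 and 6.99 and then to 1.27 and 0.910. A region in SDC3, a cell surface heparan sulfate proteoglycan, went from 0.568 and 0.422 CPM to 4.76 and 4.28 and then to 0.724 and 1.02. In TAOK1, a kinase upstream of MAP kinases, the values were 0.795 and 1.00 CPM, then 4.62 and 4.68, then 1.16 and 0.619. In all 3 genes the 6 h libraries did not overlap those of the other times. Other regions of this group lay in ASPH, an aspartyl hydroxylase, in SRGAP2 and SRGAP2C, near LOC124906232, and near RPS26P6, where the mean at 6 h was 16.4 times that at 0 h and 6.56 times that at 72 h. SRGAP2 and SRGAP2C are near-identical copies between which reads can be split, so their 2 values (means of 9.58 and 6.08 CPM at 6 h) are uncertain.

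Of the 10 regions with the highest 6 h level, 3 were at least 2-fold over both other times. In LOC124901765, an uncharacterised transcript, H3K27ac was 39.6 and 34.1 CPM at 0 h, 40.5 and 50.8 at 6 h, then 7.64 and 7.03 at 72 h (chr7:145787540-145789020, 1481 bp). In ST13, an Hsp70 cochaperone, it was 17.9 and 19.1 CPM, then 21.1 and 22.1, then 6.37 and 5.86. In these 2 regions the 0 and 6 h libraries lay close together and the 72 h libraries were low.

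In ATP2A2, the calcium pump of the endoplasmic reticulum, the values were 16.1 and 15.9 CPM at 0 h, 17.2 and 17.4 at 6 h, then 9.95 and 9.72 at 72 h. Near MIR23AHG, the host transcript of the miR-23a cluster, they were 13.6 and 15.5 CPM, then 19.9 and 21.8, then 18.2 and 17.5. In SCARB2, a lysosomal membrane receptor, they were 2.16 and 2.06 CPM, then 17.4 and 19.3, then 8.40 and 7.83. Of these 3 regions only the one in SCARB2 passed 2-fold at 6 h over both other times. The region near RPS26P6 given above, with a 6 h mean of 21.5 CPM, and the one in LOC105369724, with means of 5.40, 20.8 and 6.88 CPM at 0, 6 and 72 h, passed it too. The remaining regions were in NFE2 and LRP12 and near MIR4470, with 6 h means of 17.1 to 22 CPM.

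The deposited peaks at these regions had low −log10 q for their libraries but not low fold enrichment. The weaker of the 2 peaks at 6 h had a median −log10 q of 5.25, with a range of 2.50 to 21.9, where q and fold are the authors' values for each peak. The strongest overlapping peak of a region had a median −log10 q of 6.14 in replicate 1 and 6.02 in replicate 2, and the median over all peaks of those libraries was 7.92 and 9.23. The median fold enrichment of these peaks was 4.30 and 3.98, and over all peaks it was 3.97 and 3.81. The members with the lowest weaker peak were in RHAG (2.50), TYW1B (2.73) and ARID1A (2.85). Just outside the rule lay 350 regions with peaks in both 6 h libraries and in exactly 1 of the other 4, with median levels of 2.66, 6.09 and 2.41 CPM. Among them the weakest excluding peaks were in BTBD7 (−log10 q of 2.90), near AK6P1 (2.91) and in FAM114A1 (3.17). In FAM114A1 the H3K27ac values were 0.568 and 0.474 CPM at 0 h, 6.93 and 4.87 at 6 h, then 2.14 and 2.80 at 72 h, within the range of the regions inside the rule.

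The 6 h only regions were scattered singly. No 2 of them lay within 25 kb of each other, and the closest pair, both in AGO2, was 26689 bp apart. In the larger set of 2713 regions that gained and kept H3K27ac, 19.9% lay within 25 kb of another. The part of set size in this spacing was not tested. Of the 273, 221 (81.0%) overlapped a RefSeq gene span, against 72.6% of all H3K27ac regions. On the chromosomes with a promoter table, 17 of 260 (6.54%) overlapped a promoter window, against 11.7% of all regions and 43.1% of the regions with peaks in all 6 libraries. Their median distance to a transcription start was 13859 bp, against 19405 bp for all regions. Their median gap to the nearest 0 or 72 h peak was 5976 bp, and 63 of them were within 1 kb of one. The same gap over all regions is not given here.

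At the 3 promoters printed above H3K27ac was higher at 6 h than at both other times, and at that of TM9SF2, a membrane protein of the secretory pathway, it was not. The region over the DUSP8 start had 1.08 and 1.37 CPM at 0 h, 3.64 and 3.64 at 6 h, then 0.869 and 0.728 at 72 h. The region over the PALD1 start had 0.454 and 0.527 CPM, then 4.34 and 3.74, then 1.52 and 1.71. The region over the LOC105376367 start had 1.36 and 2.32 CPM, then 8.96 and 8.91, then 1.66 and 1.35. In these 3 regions the 6 h libraries exceeded the rest without overlap. The TM9SF2 region had 10.8 and 13.5 CPM at 0 h, 13.2 and 12.7 at 6 h, then 6.04 and 6.56 at 72 h, so its 0 and 6 h libraries overlapped. At HABP4, a hyaluronan and RNA binding protein, the means were 2.00, 3.75 and 1.09 CPM at 0, 6 and 72 h.

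Some genes of the lists chosen for PMA signalling and blood cell identity had a 6 h only region within 50 kb. The lists were not tested against all genes. Over all 19974 protein-coding genes, 3.14% had one. Of 32 immediate early and AP-1 genes 3 did (JUNB, FOSL1 and KLF6), of 28 feedback genes of kinase signalling 1 (DUSP8), of 30 NF-kappaB and cytokine genes 1 (NFKBIE), of 30 megakaryocyte and platelet genes 2 (NFE2 and CD9) and of 26 erythroid genes 1 (ALAS2). None of 32 adhesion, matrix and cytoskeleton genes had one, although 29 of them had an H3K27ac region of some kind in that distance.

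JUNB, an AP-1 subunit, had a 6 h only region 62 bp from its span, with 8.92 and 9.80 CPM at 0 h, 15.0 and 16.4 at 6 h, then 8.83 and 8.74 at 72 h. The region 37941 bp from KLF6, an early zinc finger factor, had 3.41 and 3.79 CPM, then 10.4 and 12.9, then 1.77 and 1.71. The region at FIBP, 3452 bp from the AP-1 gene FOSL1, had 6.64 and 6.01 CPM, then 10.1 and 9.45, then 7.24 and 8.05. At all 3 the 6 h libraries lay above the others, by 1.54 to 3.25 times over 0 h in the mean. The region in NFE2, a megakaryocytic and erythroid bZIP factor, had 13.2 and 18.0 CPM at 0 h, 16.6 and 17.5 at 6 h, then 9.12 and 10.3 at 72 h, so it was not separated from 0 h. The region 39732 bp from CD9, a tetraspanin of platelets, had 1.93 and 1.69 CPM, then 8.33 and 8.91, then 4.16 and 3.57.

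Jun was measured independently of the rule, and at the 6 h only regions its signal fell from 6 to 72 h. Of the 273 regions, 216 overlapped a region of the Jun table, which gave 221 Jun regions, 220 of them tested. At 6 against 0 h, 70 of the 220 (31.8%) rose at an adjusted p under 0.05 in edgeR's quasi-likelihood test, and 13.1% of all 132947 tested Jun regions did. In the other direction 17 (7.73%) fell, and 12.2% of all tested regions did. At 72 against 6 h, 128 (58.2%) fell, beside 13.5% of all tested regions, and 0 rose, beside 12.7%. With that 0 stand 1 region higher at an unadjusted p under 0.05 and 0 by DESeq2. With total-count scaling 71 fell (6.11% of all tested did) and 2 rose (22.9% of all), with a median of -0.54, and DESeq2 called 82 lower (8.27% of all). The median log2 fold change was 0.32 at 6 against 0 h (0.06 over all tested) and -0.91 at 72 against 6 h (0.02 over all tested).

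By 72 h Jun at these regions was more often lower than at 0 h. At 72 against 0 h, 23 of the 220 (10.5%) rose and 100 (45.5%) fell, beside 28.0% and 25.7% of all tested regions, with a median of -0.58 (0.17 over all tested). With libraries scaled by total counts in place of TMM, this split was 51 higher (23.2%, against 44.3% of all tested) and 47 lower (21.4%, against 15.3%), and the medians were -0.02 at these regions and 0.73 over all tested. The median CPM of the 221 Jun regions was 5.54 and 5.88 at 0 h, 7.26 and 8.39 at 6 h, then 3.90 and 4.12 at 72 h. The 3 comparisons (6 against 0, 72 against 6 and 72 against 0 h) share libraries, so a single 6 h library can move both of its comparisons. Without Jun 0 h replicate 1 the rises at 6 h numbered 44 (9.22% of all tested), and without 6 h replicate 2 they numbered 42 (8.73% of all). Without 0 h replicate 2 the median log2 fold change at 6 against 0 h was 0.47 (0.07 over all tested). The falls from 6 to 72 h numbered 55 (5.15% of all tested) without 72 h replicate 1 and 50 (4.11% of all) without 72 h replicate 2. At 72 against 0 h the median was -0.47 without 0 h replicate 2 (0.18 over all tested). It was -0.68 without 72 h replicate 2 (0.06 over all tested).

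Read together, 59 of the 220 Jun regions (26.8%) rose at 6 h and fell again by 72 h, and 2.64% of all tested regions did. A further 11 rose and were not called at 72 against 6 h (5.0%, against 8.79% of all tested), and 63 were called only as lower at 72 against 6 h (28.6%, against 9.11%). There were 6 that fell in both steps (2.73%, against 1.70%), 11 that fell at 6 h and were then not called (5.0%, against 9.27%) and 70 called in neither step (31.8%, against 55.7%). Jun regions at the 2713 regions that gained and kept H3K27ac rose at 6 h in 56.7% of 3003 tested and fell from 6 to 72 h in 23.5%. At regions with H3K27ac peaks in all 6 libraries 5.36% of 20741 Jun regions rose at 6 h and 28.1% fell from 6 to 72 h. The differences between these groups of regions were not tested.

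**Figure D3:**
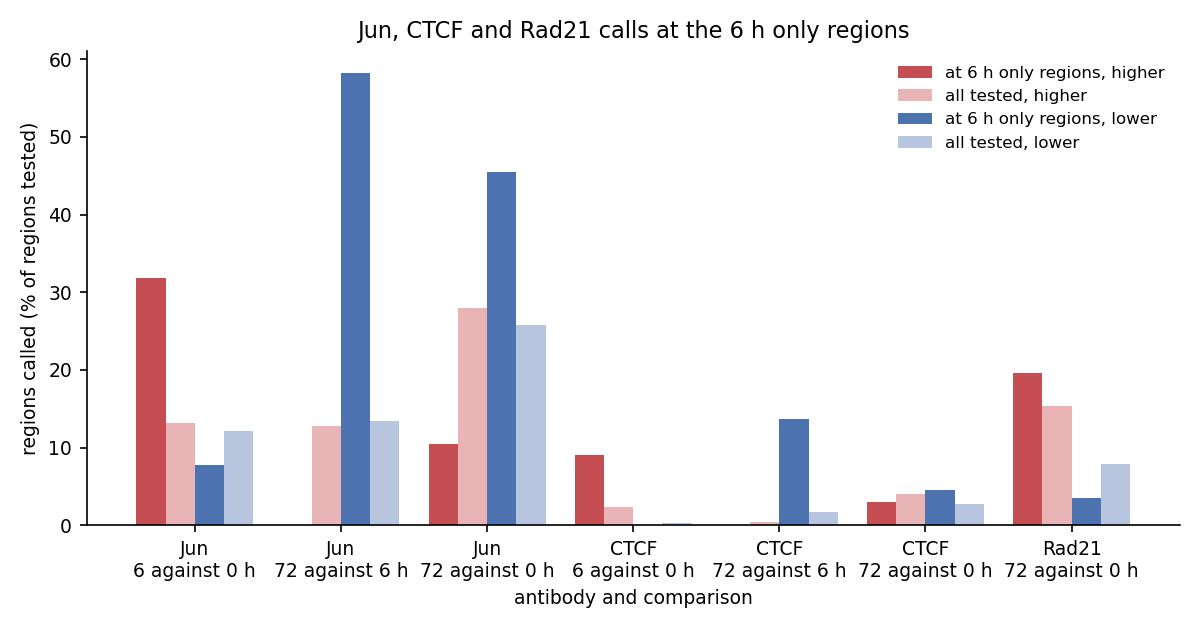
Share of tested regions called higher (red) or lower (blue) at an adjusted p under 0.05, at the 6 h only regions (dark) and over all tested regions (pale), for each antibody and comparison. The tallest bars are the Jun falls at the 6 h only regions, 58.2% at 72 against 6 h and 45.5% at 72 against 0 h, and no bar stands for a Jun rise at 72 against 6 h because 0 were called.

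The largest Jun rise lay in MAP4K4, a kinase upstream of JNK (Jun region at chr2:101736730-101738006). Its Jun values were 4.38 and 5.73 CPM at 0 h, 42.9 and 52.4 at 6 h, then 24.1 and 24.6 at 72 h. The log2 fold change at 6 against 0 h was 3.24 ± 0.23 (SE), with an edgeR adjusted p of 2.4e-08, and at 72 against 6 h it was -0.97 ± 0.19. H3K27ac in the same place had 0.284 and 0.369 CPM at 0 h, 9.59 and 8.22 at 6 h, then 6.44 and 6.45 at 72 h. None of the 3 times overlapped another for either target, and the later fall was the smaller step.

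In LHFPL2, a tetraspan membrane protein, Jun had 1.75 and 0.860 CPM at 0 h, 6.36 and 13.5 at 6 h, then 5.14 and 3.48 at 72 h. In PRTFDC1 it had 2.92 and 3.58 CPM, then 17.7 and 25.0, then 4.47 and 5.01. Near PPIAP59 it had 1.75 and 1.72 CPM, then 9.53 and 15.0, then 7.61 and 7.60. At all 3 the 6 h libraries were the highest, with log2 fold changes of 2.95, 2.72 and 2.83 at 6 against 0 h. In the TRG locus, the T cell receptor gamma genes, Jun stayed high, with 1.75 and 0.860 CPM at 0 h, 9.31 and 10.6 at 6 h, then 11.2 and 10.9 at 72 h. There H3K27ac was also higher at 72 h, with 4.66 and 2.74 CPM, then 12.9 and 12.9, then 21.1 and 21.3, and this region is the 1 that edgeR called higher at 72 against 6 h.

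At some regions H3K27ac and Jun differed from 0 h in opposite directions. At the DUSP8 promoter printed above, Jun had 50.6 and 40.3 CPM at 0 h, 14.1 and 14.8 at 6 h, then 6.28 and 5.01 at 72 h. Its log2 fold change at 6 against 0 h was -1.65 ± 0.21 (SE; edgeR adjusted p = 8.2e-06). In HTT, the huntingtin gene, Jun had 17.1 and 16.1 CPM, then 5.67 and 6.57, then 2.90 and 3.18. H3K27ac in HTT had 1.87 and 2.42 CPM, then 5.67 and 4.82, then 1.56 and 1.64. At both loci the 6 h libraries were the highest for H3K27ac and lay between the other times for Jun.

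The other called falls among the 5 lowest were in COL25A1, a transmembrane collagen (20.3 and 21.9 CPM, then 7.04 and 7.48, then 8.99 and 8.57), near KLHL15 (-1.67 on the log2 scale) and in ISOC2 (-1.72, a call lost without Jun 0 h replicate 2 or without 6 h replicate 1). At the LOC105376367 promoter with its AP-1 match, Jun had 7.0 and 6.02 CPM at 0 h, 7.26 and 6.57 at 6 h, then 3.90 and 4.12 at 72 h, and its 6 against 0 h fold change of 0.08 on the log2 scale was not called (edgeR adjusted p = 0.87).

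**Figure D4:**
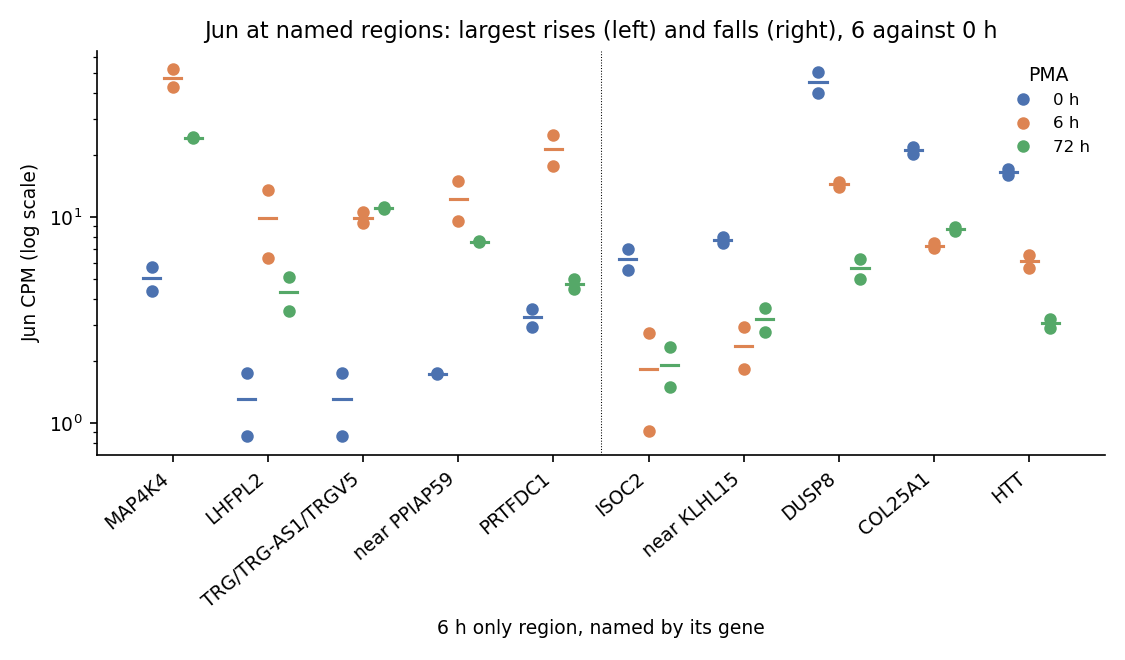
Jun CPM (log scale) in each library at the 5 Jun regions with the largest rise (left of the dotted line) and the 5 with the largest fall (right) at 6 against 0 h among called regions at or above the median level, with a short line at each mean of 2 libraries. MAP4K4 is at 42.9 and 52.4 CPM at 6 h, and DUSP8 goes down at each later time from 50.6 and 40.3 CPM.

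Jun and H3K27ac differences were related across the regions, least closely at 72 against 6 h. Across the 220 pairs of regions, the log2 fold changes at 6 against 0 h had a Pearson r of 0.61 and a Spearman rho of 0.56. At 72 against 6 h these were 0.36 and 0.45, and at 72 against 0 h 0.63 and 0.61. These points share libraries and are not independent replicates, so no p is given. The regions were chosen by H3K27ac, and the part of that choice in the order of these values was not tested. Among the regions at least 2-fold over both other times, 53 of 131 Jun regions (40.5%) rose at 6 h and 93 (71.0%) fell from 6 to 72 h. Of the Jun regions at those 2-fold over 0 h only, 11 of 22 rose and 8 fell, at those 2-fold over 72 h only 4 of 51 rose and 22 fell, and at those 2-fold over neither 2 of 16 rose and 5 fell. The differences between these classes were not tested. At the 10 regions with the clearest pulse, 9 Jun regions were tested, 8 rose at 6 h and all 9 fell by 72 h, beside the 13.1% and 13.5% of all tested regions given above. In QSOX2 Jun had 7.15 and 6.88 CPM at 0 h, 13.6 and 14.6 at 6 h, then 6.28 and 6.54 at 72 h. There the 6 h libraries were the highest for Jun as for H3K27ac.

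Peak calls gave a different picture of Jun from the counts. Jun peaks in both libraries covered 29.7% of the 273 regions at 0 h, 32.6% at 6 h and 56.8% at 72 h, beside 22.6%, 16.4% and 53.8% of all H3K27ac regions. Jun peaks at 6 h and at no other time were found at 2 of the 273 (0.733%) and at 15 of all 94896 regions (0.0158%), and 71 (26.0%, against 33.3% of all) had no Jun peak. The Jun libraries at 72 h had 92329 and 99102 peaks and 17245043 and 18883962 counts in regions, against 23946 and 35376 peaks and 4766421 and 5531183 counts at 6 h. The part of this depth in the peak shares was not tested.

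CTCF was present at fewer of the regions, and 5 loci held most of its called changes at 6 h. Of the 273 regions, 65 overlapped a CTCF region, and all 66 such CTCF regions were tested. At 6 against 0 h, 6 of the 66 (9.09%) rose in edgeR's test, beside 2.33% of all 58156 tested CTCF regions, and 0 fell, beside 0.325%. At 72 against 6 h, 9 (13.6%) fell, beside 1.73%, and 0 rose, beside 0.449%. At an unadjusted p under 0.05 the 0 falls were 2 and the 0 rises were 0, and DESeq2 gave 0 for both. At 72 against 0 h, 2 rose (4.07% of all tested) and 3 fell (2.72% of all), and with total-count scaling 8 rose (12.1%, against 11.3% of all) and 2 fell (3.03%, against 1.07%). The median log2 fold change was 0.30, -0.21 and -0.16 for the 3 comparisons, and with total counts it was 0.10, 0.19 and 0.07.

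Without CTCF 0 h replicate 1 none of the 6 rises was called, and 0.0016% of all tested regions were. Without 72 h replicate 1 the median log2 fold change from 6 to 72 h was -0.16 (-0.01 over all tested). Leaving out each replicate at 0, 6 and 72 h in turn gave medians at 72 against 0 h of -0.07, -0.02, -0.16, -0.15, -0.09 and -0.11. Over all tested regions they were 0.09, 0.07, 0.02, 0.03, -0.001 and 0.009 in that order.

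The 5 loci where CTCF rose by more than 50 CPM were in LOC124902641, ADGRG3, TTC29-AS1 and ALAS2 and near LINC02460. In ADGRG3, TTC29-AS1 and ALAS2 and near LINC02460 the CTCF and Rad21 regions had the same borders. Whether reads at the 5 loci map uniquely was not tested, so their counts may not all be binding at these places. In LOC124902641 CTCF had 46.4 and 64.6 CPM at 0 h, 219 and 287 at 6 h, then 35.5 and 56.1 at 72 h (chr11:17488062-17488413). The log2 fold change was 2.19 ± 0.33 (SE; edgeR adjusted p = 0.00079) at 6 against 0 h and -2.46 ± 0.33 at 72 against 6 h. In ALAS2, the first enzyme of heme synthesis in red cells, CTCF had 44.6 and 70.4 CPM, then 202 and 233, then 46.3 and 98.6 (chrX:55025803-55026182). The 6 h libraries lay above the other 4 at both loci, and 0 and 72 h overlapped.

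In ADGRG3, an adhesion receptor of granulocytes, CTCF had 22.9 and 28.9 CPM at 0 h, 108 and 109 at 6 h, then 25.8 and 39.6 at 72 h. In TTC29-AS1 it had 18.1 and 33.9 CPM, then 111 and 124, then 25.1 and 47.8. Near LINC02460 it had 24.7 and 44.0 CPM, then 157 and 168, then 32.5 and 66.9. At all 3 loci the 6 h libraries lay above the other 4, and the 0 and 72 h libraries overlapped. Over the whole table, 750 CTCF regions rose at 6 h and then fell, 5 of them at 6 h only regions, and 275 rose by more than 50 CPM, of which 161 overlapped an H3K27ac region of any kind.

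At these 5 loci the H3K27ac counts were low, and Jun and Rad21 changed as well. In ALAS2 H3K27ac had 1.99 and 2.27 CPM at 0 h, 5.39 and 1.87 at 6 h, then 1.23 and 1.60 at 72 h, so its 6 h libraries were on both sides of the 0 h level. In ADGRG3 it had 4.88 and 4.85 CPM, then 4.97 and 4.08, then 3.22 and 3.93. Jun in ALAS2 had 47.5 and 54.8 CPM, then 97.2 and 75, then 11.8 and 9.46, and Rad21 had 65.9 and 63.5 CPM at 0 h and 142 and 196 at 72 h. The 5 loci also gave the 5 largest Jun falls from 6 to 72 h among regions at or above the median level, with log2 fold changes of -3.40 in LOC124902641, -3.24 in ADGRG3, -3.10 in TTC29-AS1, -3.02 in ALAS2 and -2.93 near LINC02460. At the other 3 loci both 6 h H3K27ac libraries, at 1.48 to 4.2 CPM, lay above both 0 h libraries. Leaving out the 5 loci took the Jun counts from 70 and 128 to 66 rises at 6 h and 123 falls by 72 h.

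**Figure D5:**
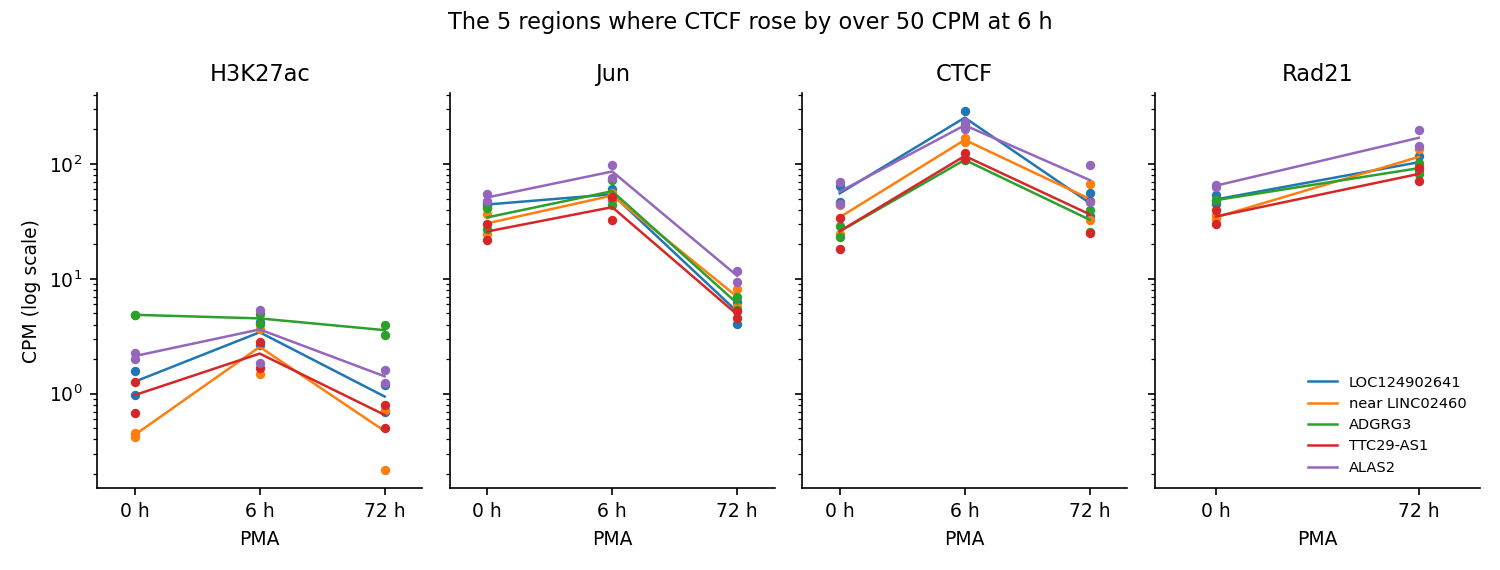
CPM (log scale) of H3K27ac, Jun, CTCF and Rad21 by time of PMA at the 5 loci where CTCF rose by over 50 CPM, with a point per library and a line through the means of 2 libraries. CTCF peaks at 6 h at all 5, Jun is lowest at 72 h, Rad21 is higher at 72 than at 0 h, and H3K27ac stays at or under 5.39 CPM.

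The sixth CTCF rise was near LOC105371908, with 0.765 and 2.17 CPM at 0 h, 8.74 and 11.8 at 6 h, then 7.83 and 8.85 at 72 h. Unlike the 5 loci it was not called at 72 against 6 h (log2 fold change of -0.28, edgeR adjusted p = 0.75). The remaining CTCF falls from 6 to 72 h were in PDZRN4, in AKAP6, near SAE1P1 and at MTRNR2L12. The AKAP6 region also overlaps MTCO1P2, and MTRNR2L12 is another copy of mitochondrial sequence, so counts there cannot be told apart from mitochondrial reads. In AKAP6 CTCF had 13.3 and 30.3 CPM at 0 h, 31.4 and 19.1 at 6 h, then 7.60 and 5.62 at 72 h. In RABGAP1L, a Rab GTPase regulator, CTCF had 34.4 and 43.7 CPM, then 31.1 and 30.5, then 20.3 and 18.7, and it fell by 1.00 on the log2 scale at 72 against 0 h, a call lost under 7 of 12 alternatives.

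Rad21 was measured at 0 and 72 h and not at 6 h, the time of the H3K27ac peaks. Of the 273 regions, 112 overlapped a Rad21 region, and 112 of the 114 Rad21 regions there were tested. At 72 against 0 h, 22 of the 112 (19.6%) rose, beside 15.4% of all 83750 tested Rad21 regions, and 4 (3.57%) fell, beside 7.91%. With total-count scaling 16 rose (11.8% of all tested did) and 7 fell (12.3% of all). Without 72 h replicate 1 the counts were 10 (6.32% of all) and 0 (1.81% of all), and without 72 h replicate 2 they were 14 (7.05% of all) and 2 (2.07% of all). The median log2 fold change was 0.31 (-0.05 over all tested), and among the 32 regions with a mean count of at least 50 it was -0.23. The share that rose was 63.5% of 2306 at the regions that gained and kept H3K27ac and 8.0% of 19439 at those with peaks in all 6 libraries, differences that were not tested.

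The largest Rad21 rise at or above the median level was near RPS26P6, with 1.89 and 1.27 CPM at 0 h and 11.2 and 11.5 at 72 h (log2 fold change 2.80 ± 0.39 SE, edgeR adjusted p = 3.3e-05). Jun in the same place had 9.48 and 7.45 CPM at 0 h, 41.8 and 55.5 at 6 h, then 19.6 and 19.5 at 72 h, and H3K27ac had 1.25 and 1.37, then 23.1 and 20.0, then 3.47 and 3.10. All 3 targets were thus above their 0 h libraries at 72 h, and the 2 measured at 6 h were highest then. Near LOC101928331 Rad21 had 2.36 and 3.17 CPM at 0 h and 13.7 and 7.73 at 72 h. In SCARB2 it had 3.46 and 2.32 CPM and then 9.97 and 8.67, and in MAP4K4 1.26 and 2.11 CPM and then 5.36 and 5.28. At these 3 loci both 72 h libraries lay above both 0 h libraries.

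The 4 falls of Rad21 were in RABGAP1L, CUX1, WDFY4 and GPA33. In RABGAP1L Rad21 had 18.1 and 21.7 CPM at 0 h and 7.44 and 8.86 at 72 h (log2 fold change -1.29 ± 0.27 SE, edgeR adjusted p = 0.0016), where CTCF was also lowest at 72 h. In CUX1, a homeobox factor, Rad21 had 4.87 and 8.65 CPM and then 2.23 and 2.45. The calls in CUX1 and WDFY4 were lost under 4 and 3 of 9 alternatives, DESeq2 among them.

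In the authors' deposited table each region carries a label of its H3K27ac course. Of the 273 regions, that table labels 199 static (72.9%, against 64.2% of all regions), 46 upLate (16.8%, against 23.2%) and 17 downEarly (6.23%, against 8.09%). It labels 7 upEarly (2.56%, against 2.79%) and 4 downLate (1.47%, against 1.74%). These 5 labels are the only ones the table uses on the 94896 regions.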

How the data were processed

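In the 4 deposited region tables the authors give whole-number counts for each library, not normalized. Per the file headers they also hold the authors' log2 fold changes against 0 h and adjusted p-values, which were not used. The deposited peak lists, 1 per library, give the authors' fold enrichment (a ratio) and −log10 p and q for each peak. The submitters' processing notes name Trim Galore 0.4.3, BWA 0.7.17, SAMtools 1.9, MACS2, deepTools 3.0.1, bedtools 2.26 and the builds hg19 and hg38, with no role. Regions reach position 83246877 on chromosome 17, past the end of that chromosome in hg19, so coordinates were read as hg38 (GRCh38). Deposited starts equalled peak starts counted from 0 and are printed plus 1. How regions were built and reads counted is not given in the sources used here.

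From the counts, edgeR 4.0.16 (R 4.3.3) was run per antibody over all time points: filterByExpr, TMM, and the quasi-likelihood test with no replicate block, Benjamini-Hochberg adjusted over all tested regions. The script was tested on simulated data. DESeq2 1.42.0 served as an alternative, besides other scalings and filters, stricter peaks and leaving out each library. A further 3 alternatives on subsets of the regions were added after seeing the data. A log2 fold change is given with its standard error.

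Gene names came from RefSeq gene spans on GRCh38.p14, which carry no strand, exon or UTR. "In" a gene means overlapping its span, and "near" means nearest to it.

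Regions were named by rule: the 10 with the highest mean 6 h CPM, the 10 with the largest smaller ratio (0.1 CPM added) among those at or above the median 6 h CPM, the highest and lowest called regions at or above the median level (5 each for Jun, 3 for CTCF and Rad21), those within 50 kb of listed genes, and the 3 weakest inside and outside the rule. The other named regions were chosen after their values were seen, and some regions are not reported here. The regions and gene lists were chosen with earlier results of these data known.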

Additional observations from a re-analysis of the deposited data

How the results depend on the processing

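The labels do not say that replicate numbers mark a shared culture, and the deviations of same-numbered libraries correlated by -0.003 to 0.13, so the numbers were not taken as pairs. With a replicate block the called Jun regions numbered 83, 121 and 119 for 6 against 0, 72 against 6 and 72 against 0 h (87, 128 and 123 without it), CTCF 6, 9 and 8 (6, 9 and 5) and Rad21 28 (26). With the block 12.7%, 11.9% and 26.7% of all tested Jun regions were higher and 11.6%, 12.5% and 24.8% lower. For CTCF these shares were 2.73%, 1.01% and 6.61% higher and 0.555%, 2.82% and 5.67% lower, and for Rad21 16.7% and 9.24%.

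The number of regions was 157 with 6 h peaks of −log10 q of at least 5, 6 with at least 10, and 335 to 1706 when 1 H3K27ac library was left out, the most without 6 h replicate 2 and 6 h replicate 1 (1706 and 1356). Leaving out 1 library of the antibody gave 56 to 90, 50 to 127 and 81 to 134 called Jun regions for the 3 comparisons, 0 to 9, 2 to 9 and 0 to 12 for CTCF, and 10 to 28 for Rad21. Restricting to the 157 stronger regions gave 55, 83 and 71 of 131 tested Jun regions and 14 of 65 tested Rad21 regions. Of the 131, 36.6%, 0% and 10.7% were higher and 5.34%, 63.4% and 43.5% lower in the 3 comparisons. Over all tested Jun regions 13.1%, 12.7% and 28.0% were higher and 12.2%, 13.5% and 25.7% lower. Of the 65, 20.0% were higher and 1.54% lower (15.4% and 7.91% of all tested Rad21 regions). At 72 against 6 h Jun had 73 with total counts, 82 by DESeq2 and 80 at a mean count of 50 or more. In that last setting fewer regions were tested, and the 80 of 130 were all lower (61.5%, against 19.1% of all tested). At 72 against 0 h Jun had 68 of 131 in the regions 2-fold over both times. Of the 131, 10.7% were higher and 41.2% lower (28.0% and 25.7% of all tested). Without the 5 loci 1 of 61 CTCF regions was higher at 6 against 0 h (2.33% of all tested) and 4 were lower at 72 against 6 h (1.73%). At a mean count of at least 50, 2 of 33 were lower at 72 against 6 h (0.949% of all). In that edgeR setting 0 were called at 72 against 0 h (2.03% of all higher, 0.557% lower). Total counts gave 8 higher and 2 lower there (11.3% and 1.07% of all), and DESeq2 1 and 2 (1.01% and 0.683%). With an overlap of 200 bp 0 were higher and 3 lower, and in the regions 2-fold over both times 1 and 1 (4.07% and 2.72% of all). Rad21 had 11 higher and 1 lower by DESeq2 (6.89% and 2.01% of all tested). At a mean count of 50 or more it had 5 higher and 3 lower (14.9% and 13.8% of all). Without 1 library the median log2 fold changes at these regions kept their sign. For Jun they were 0.23 to 0.47, -0.95 to -0.79 and -0.68 to -0.47. Over all tested Jun regions they were -0.03 to 0.10, 0.005 to 0.06 and 0.06 to 0.18. For CTCF they were 0.12 to 0.35, -0.26 to -0.16 and -0.16 to -0.02. Over all tested CTCF regions they were -0.07 to 0.07, -0.01 to 0.09 and -0.001 to 0.09. For Rad21 they were 0.15 to 0.45 (-0.16 to 0.02 over all tested). Beyond settings that test fewer regions or libraries, the cause of the changed counts was not tested.

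Total-count scaling moved the median of all Jun regions from 0.06, 0.02 and 0.17 to 0.26, 0.39 and 0.73, and with it the medians at the 6 h only regions to 0.53, -0.54 and -0.02. The mean of the H3K27ac medians was 1.69, 4.48 and 1.36 CPM at 0, 6 and 72 h, 1.49 and 4.97 at 0 and 6 h with total counts, and 1.64, 4.92 and 1.51 in the stronger regions. Jun peaks in at least 1 library covered 41.8%, 56.8% and 68.1% at 0, 6 and 72 h, and peaks of −log10 q of at least 10 covered 17.6%, 17.2% and 37.4%. Within 10 kb, 5 listed genes had a region, against 8 within 50 kb. Of the 339 alternative values for named regions, 309 kept their direction and call, 30 lost the call and 0 reversed. The H3K27ac values rest on a median of 30 to 87 counts per region and library.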

Other observations

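In 3 of the 273 regions both 72 h H3K27ac libraries lay above both 6 h libraries although no peak was called at 72 h. The share of all H3K27ac regions with this order of libraries is not given here. The regions named here were chosen after their values were seen. At the start of PLEKHO1, a phosphoinositide-binding adaptor, H3K27ac had 2.1 and 1.63 CPM at 0 h, 7.0 and 6.45 at 6 h, then 7.89 and 7.39 at 72 h. Another was the TRG region described above. In both the 72 h libraries lay above the 0 h libraries as well.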
